A study of Mus musculus with 64 samples.

Results

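The brains of 8 wild-type mice were compared between the 2 strain labels of the study, C57BL/6J against C57BL/6. They were chosen by their labels alone, as the 4 wild-type brain arrays of each strain label, which makes 8 of the 64 arrays of the series. All 16 mice of the series were males aged 21 weeks, and each gave 1 array of brain, liver, spleen and thymus. The 4 wild types labelled C57BL/6 share that label with 4 Hmgn2-/- mice, and the 4 wild types labelled C57BL/6J share theirs with 4 Hmgn1-/-n2-/- mice. HMGN1 and HMGN2 are small chromatin proteins that bind nucleosomes, and no group carried a transgene by the labels. Strain label and cohort are the same split here, so that the origin of the mice and anything that differed between the cohorts cannot be told apart. The labels give no subline, supplier or breeding history for the mice called C57BL/6.

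C57BL/6 is the most used inbred mouse strain, and colonies bred apart for many generations have become sublines that differ by fixed mutations. C57BL/6J is the subline of the Jackson Laboratory and lacks a working copy of Nnt, an enzyme of the mitochondrial inner membrane that makes NADPH. Wild-type controls of different cohorts are often treated as the same mouse, and the comparison asks what separates them in the brain.

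The wild-type brains differed in 75 of 8752 genes tested, of which 32 were higher with the C57BL/6J label (0.366% of the genes tested) and 43 lower (0.491%). Scaling each array to 1 median instead of quantiles gave 385 higher and 32 lower and moved the median of all genes to 0.23, so the balance of directions depends on the scaling. Values are log2 intensities of 1 probe per gene after background correction and quantile normalization, and a gene passed at an adjusted p under 0.05 in limma. The size of the passing differences had a median of 0.74 on the log2 scale, and 8 were larger than 1. In all 75 genes the 4 levels of one label lay wholly above the 4 of the other, which was also the case in 10.1% of all genes tested. The median difference over all genes was 0.03. Without any adjustment, 779 genes were higher at a p under 0.05 (8.90%) and 597 lower (6.82%).

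The number of passing genes depended on single arrays. Without C57BL/6 replicates 1, 2, 3 and 4 in turn it was 32, 187, 18 and 8. Without C57BL/6J replicates 1, 2, 3 and 4 it was 41, 9, 8 and 17. Each of these fits used the values normalized over all brain arrays, including the array left out of the fit. Of the 75 genes, 6 passed in all 8 of these fits, namely Ccng2, Bpnt1, Dynll2, Npm3-ps1, Eif4b and Ociad1, and 14 passed in at least 4. The filter that keeps detected probes used all 8 wild-type arrays in each fit. The C57BL/6 arrays alone carried Ccng2 and Eif4b past it, so these fits add no support for those genes. Before normalization the raw signals of Eif4b and Ociad1 overlapped between the labels. C57BL/6 replicate 2 had the lowest mean correlation with the other brain arrays of all wild types, 0.966 against 0.978 to 0.983. Raw brightness also went with the label: the 95th percentile of the raw signal was 685, 678, 768 and 1186 on the C57BL/6 arrays and 1054, 973, 1054 and 1218 on the C57BL/6J arrays. With C57BL/6 replicate 4, the bright array of its group, as the only C57BL/6 array, 4 genes passed, of which 1, Ccng2, was among the 75. That fit assumes that the lone array varies like those of the other label. An array detected 12319 to 12928 probes in C57BL/6 and 11784 to 12623 in C57BL/6J.

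The labels were checked first on the targeted genes and on brain markers. Hmgn2 read between 10.32 and 10.68 on the 8 wild-type arrays and between 4.42 and 5.11 on the 8 mutant arrays, without overlap. Hmgn1 read between 10.33 and 10.73 in the wild types, and its probe stayed at 10.33 to 10.49 in the Hmgn1-/-n2-/- brains, so it checks nothing about the deletion. Between the wild types, Hmgn1 (0.06 ± 0.12), Hmgn2 (-0.05 ± 0.12), Hmgn3 (0.12 ± 0.12) and Hmgn5 (0.28 ± 0.19, limma's standard errors) did not pass. Of 20 genes of synaptic vesicles on the array, 18 were measured, at a mean log2 level of 9.92 to 10.33 per array. Pituitary RNA varied between brains: Gh, growth hormone, read 4.33, 4.21, 4.42 and 5.58 in C57BL/6 and 12.93, 5.04, 8.71 and 4.22 in C57BL/6J. Prl, prolactin, read 12.28 on the first of those C57BL/6J arrays and 7.64 on the third. The difference of Gh was 3.09 ± 1.37 (adjusted p = 0.3) and it did not pass.

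Ccng2, an atypical cyclin linked to cell cycle arrest, showed the largest difference among the genes that passed. It read 7.20, 7.97, 7.32 and 7.69 in C57BL/6 and 4.95, 4.48, 4.48 and 5.09 in C57BL/6J, where it was detected on 2 of 4 arrays. Every C57BL/6J brain lay more than 2 log2 units below every C57BL/6 brain. The measured difference was -2.80 ± 0.19 (limma's adjusted p = 1.65e-05), with the C57BL/6J side at the edge of detection. The size depends on the background step: it was -1.21 without background correction and -3.40 in the authors' normalized table. Without that correction 52 of the 75 differences were over 1.5 times smaller. Dynll2, a dynein light chain that is also a hub protein of many complexes, read 7.70, 7.96, 8.25 and 7.96 against 6.31, 6.69, 6.84 and 6.62. Its difference was -1.35 ± 0.15 (adjusted p = 0.00171 in limma), and the groups did not overlap.

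The further large decreases with the C57BL/6J label fell on genes of several functions. Slc23a2, the vitamin C transporter of neurons, read 7.72, 8.47, 7.58 and 8.14 against 6.65, 6.69, 6.86 and 7.30, a difference of -1.10 ± 0.20. Gabrb2, a beta subunit of the GABA-A receptor, read 5.83, 6.99, 6.01 and 6.14 against 5.47, 4.95, 5.20 and 4.99, a difference of -1.09 ± 0.22. Its C57BL/6 levels were spread more widely than those of C57BL/6J, with replicate 2 the highest. Sirpa, the receptor through which CD47 restrains phagocytes, was lower by -1.02 ± 0.16. Eif4b, a helper of the helicase in translation initiation, read 5.53 to 5.93 against 4.61 to 4.80 and was detected on 1 of 4 C57BL/6J arrays. Its raw signal overlapped, at 111.1, 108.3, 127.6 and 148.7 in C57BL/6 and 110.6, 109.5, 114.1 and 117.4 in C57BL/6J. Its separation therefore appeared only after normalization, and its difference ranged from -1.60 to -0.27 over the settings tried. Ube2z, a ubiquitin-conjugating enzyme (-0.97 ± 0.20), Ppargc1b, a coactivator of mitochondrial genes (-0.94 ± 0.18), and Pigk, a subunit of the enzyme that attaches lipid anchors (-0.86 ± 0.18), passed as well, with Zfp612 and Fam76a at -0.88 each. Hsd3b2 fell by 1.10 on the log2 scale (standard error 0.19), but steroid dehydrogenases of this family have near-identical copies, so the gene read by the probe is uncertain.

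Bpnt1 and Tnfrsf10b led the genes that were higher with the C57BL/6J label. Tnfrsf10b, a death receptor for TRAIL, read 5.71, 5.59, 5.85 and 5.35 in C57BL/6 and 6.64, 6.98, 7.31 and 6.54 in C57BL/6J. The lowest C57BL/6J level of Tnfrsf10b was above the highest C57BL/6 level, and the difference was 1.25 ± 0.17 (limma's adjusted p = 0.00859). Bpnt1, a phosphatase that clears a by-product of sulfation, read 6.49, 6.02, 6.41 and 6.25 against 7.36, 7.53, 7.61 and 7.56. Its difference was 1.22 ± 0.13 (adjusted p = 0.00171 in limma) on the probe with the highest mean over the wild types. The other detected probes of Bpnt1 went the other way, at -0.47 and -0.21. Npm3-ps1, a pseudogene whose signal cannot be parted from that of its parent gene Npm3 here, read 6.98, 6.56, 6.74 and 6.80 against 7.64, 7.76, 7.69 and 7.92. Ppie, a cyclophilin of the spliceosome, read 5.93 to 6.22 against 6.84 to 6.91, again without overlap.

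Among the other increases were Kif22, a motor protein of mitotic chromosomes (0.80 ± 0.15), Aldh3a1, an aldehyde dehydrogenase (0.78 ± 0.15), and Eef1akmt1, which methylates a translation elongation factor (0.94 ± 0.19). Wfdc2 (0.84 ± 0.15), a secreted protein with a protease inhibitor fold, and Prr14l (0.83 ± 0.16) passed too. Bmp2k, a kinase linked to endocytosis, was not detected on any C57BL/6 array and on all 4 of C57BL/6J, which gives a level at least 1.34-fold higher. Its measured means were 4.39 and 5.20 (adjusted p = 0.0358 in limma). In the opposite direction Nkain1, Rasgef1b and Rab40b, named after their values were seen, were detected on all C57BL/6 arrays and on none of C57BL/6J, with levels at least 1.43-fold, 1.38-fold and 1.28-fold lower in C57BL/6J (adjusted p = 0.0234, 0.0411 and 0.0371 in limma). These 4 genes met the detection filter only through the group in which they are high, so a difference was bound to be seen and their p-values add no support. The same limit touches Ccng2, Eif4b and Zfp940, which were detected on all C57BL/6 arrays and on 1 or 2 of C57BL/6J, so that the C57BL/6 arrays alone carried them past the filter. The bounds set the dim group at the lowest detected signal of each array, or at the probe's own signal where that was higher. They hold only for the background-corrected and quantile-normalized values. Over all settings tried, the log2 differences closest to 0 were 0.21 for Bmp2k, -0.20 for Nkain1, -0.17 for Rasgef1b and -0.14 for Rab40b.

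**Figure D1:**
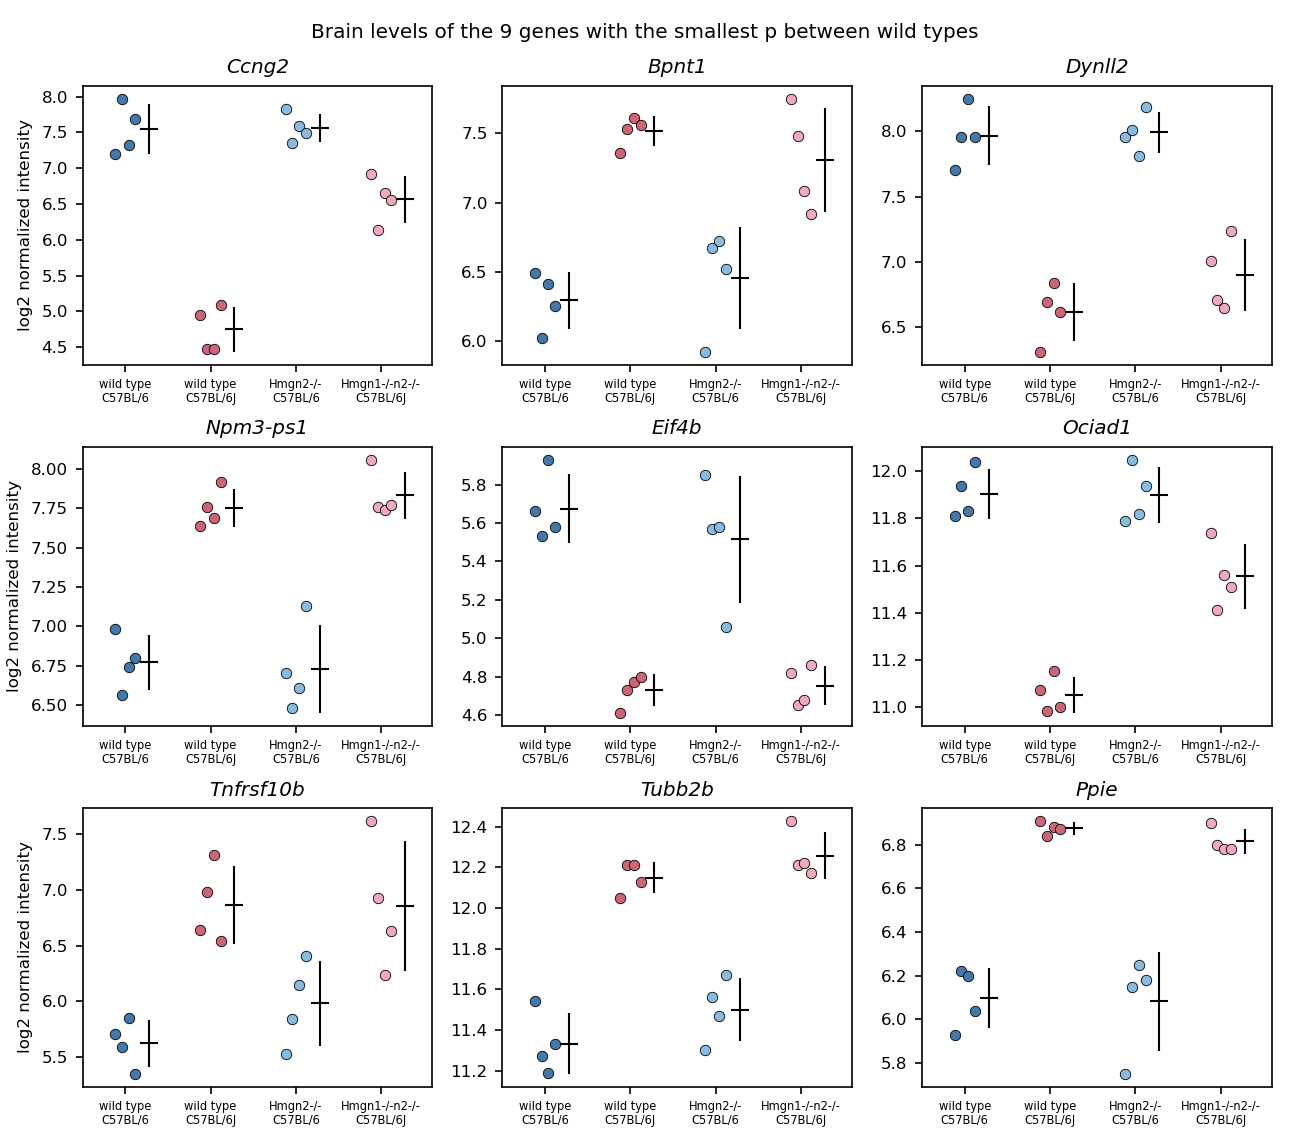
Log2 normalized intensity in the 4 brain groups of the 9 genes with the smallest p between wild types, with 1 point per array and the mean ± SD (n = 4) beside each group. The 2 wild-type groups do not overlap in any panel, and for Ccng2 and Ociad1 the Hmgn1-/-n2-/- brains lie between them.

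Several passing genes were read by more than 1 probe, and the probes of a gene often disagreed. In all, 16 of the 75 genes had 23 further detected probes, of which 15 had the same sign as the tested probe and 3 passed in that direction when every probe was tested. Srd5a3, which reduces polyprenols for protein glycosylation, was lower on all its detected probes, at -0.60 on the tested probe and at -0.93 and -1.08 on the others. B2m, the light chain of class I antigen-presenting molecules, was higher by 0.77 on each of its 2 detected probes. Usp18, which removes the interferon-induced tag ISG15, was higher by 0.72 and 0.68. Tubb2b, a beta tubulin of neurons, went both ways: 0.82 ± 0.12 on the brightest probe, and -0.76, -0.21, -0.74 and -0.23 on the 4 others detected. Bpnt1 was at -0.47 and -0.21 on its other detected probes, against 1.22 on the tested one. In C57BL/6 alone another probe had the higher mean, at 7.03 against 6.30 for Bpnt1 and 11.35 against 11.33 for Tubb2b. In both genes the choice by highest mean over both labels therefore favoured the probe that was higher in C57BL/6J. Ociad1 (0.01), Parm1 (0.01), Trpc4ap (-0.08 and -0.03), all named after their values were seen, and Ifit3 (0.10 and 0.07) were near 0 on further detected probes. The sources used here do not say which part of a transcript each probe reads, so a difference in transcript level and a difference in probe binding cannot be told apart for these genes.

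The further genes named in this paragraph were chosen after their values were seen. Of 190 solute carrier genes tested, 3 were higher with the C57BL/6J label and 4 lower, where all genes gave 0.366% and 0.491%. Nothing is read from that count, since the family was picked for it. The iron transporter Slc11a2 (0.69 ± 0.12), the synaptic vesicle transporter Slc6a17 (0.56 ± 0.12) and Slc23a3 (0.65 ± 0.12), a relative of the vitamin C transporters, were higher. The aspartate-glutamate carrier of mitochondria, Slc25a12 (-0.59 ± 0.12), the fatty acid transporter Slc27a1 (-0.79 ± 0.16) and Slc35b1 (-0.63 ± 0.12) were lower beside Slc23a2. Other neural genes that passed were Elavl3, a neuronal RNA-binding protein (-0.68 ± 0.14), Plcb4, a phospholipase of neuronal signalling (-0.66 ± 0.13), and Shh, the ligand of the hedgehog pathway (0.62 ± 0.13).

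The list of the interferon response held 2 passing genes, both higher with the C57BL/6J label. Type I interferons are signals of the innate immune response, and many of their target genes carry a short shared element in the promoter. Of 18 measured genes of the list, 2 were higher (Usp18 and Ifit3), 0 were lower and 9 were higher at an unadjusted p under 0.05. Over all genes 0.366% were higher, and 8.90% were higher without adjustment. The median of the list was 0.29 against 0.03 over all genes, and 0.22 without C57BL/6 replicate 2. Usp18 read 5.14, 5.09, 4.77 and 4.81 in C57BL/6 and 5.87, 5.56, 5.59 and 5.65 in C57BL/6J. Ifit3 read 7.53, 7.31, 7.75 and 7.47 against 8.42, 8.23, 8.05 and 8.03 on its tested probe. Gbp3, an interferon-induced GTPase, was at 0.55 ± 0.13 (adjusted p = 0.0688) and did not pass. Another detected probe of Gbp3 was at 0.06. Ifi27l2a (0.72 ± 0.15), an interferon-induced gene outside the list, passed and was named after its values were seen. The mean level of the list was 6.32 to 6.54 per array in C57BL/6 and 6.64 to 6.82 in C57BL/6J, so the groups did not overlap. Of 40 lists, 4 lay wholly higher in C57BL/6J by this measure and 6 wholly lower. The others that were higher were antigen presentation, ribosomal proteins and ependymal genes, and those that were lower were heat shock, endoplasmic reticulum stress, GABA, astrocyte, oligodendrocyte and acute phase genes.

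Of 13 measured genes of antigen presentation, B2m passed as higher and 0 as lower, against 0.366% and 0.491% of all genes. Without adjustment 6 were higher and 0 lower. The median of the list was 0.28, and 0.27 without C57BL/6 replicate 2. B2m read 10.24, 9.76, 9.82 and 9.72 in C57BL/6 and 10.64, 10.67, 10.70 and 10.60 in C57BL/6J, a difference of 0.77 ± 0.13 (limma's adjusted p = 0.0308). The class II genes H2-Eb1 (0.49 ± 0.14, adjusted p = 0.12) and H2-Ab1 (0.54 ± 0.19, adjusted p = 0.198) did not pass. Microglia markers, the cells that carry most class II molecules in the brain, had 0 of 20 members passing in either direction, a median of 0.06 and a mean level of 6.57 to 6.81 in C57BL/6 against 6.70 to 6.91 in C57BL/6J. In a bulk sample, fewer cells of a type and less RNA per cell cannot be told apart.

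The promoters of B2m and Ifit3 are shown because both genes passed and both hold the element of interferon-induced genes, B2m in 1 copy and Ifit3 in 2. The letters searched were GAAA, any 2 bases (NN) and GAAA again, or TTTC, NN and TTTC for the other strand, and the capitals mark each match. The windows span the start of the gene, 5′ to 3′ on its strand, and come from RefSeq on GRCm38.p6. B2m lies at chr2:122147437-122147736 on the plus strand and Ifit3 at chr19:34583279-34583578 on the plus strand.
B2m: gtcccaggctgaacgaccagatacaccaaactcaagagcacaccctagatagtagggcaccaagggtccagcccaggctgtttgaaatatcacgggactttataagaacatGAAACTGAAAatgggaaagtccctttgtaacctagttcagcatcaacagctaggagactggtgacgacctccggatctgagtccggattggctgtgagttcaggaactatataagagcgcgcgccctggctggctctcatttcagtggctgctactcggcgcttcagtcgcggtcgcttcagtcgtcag
Ifit3: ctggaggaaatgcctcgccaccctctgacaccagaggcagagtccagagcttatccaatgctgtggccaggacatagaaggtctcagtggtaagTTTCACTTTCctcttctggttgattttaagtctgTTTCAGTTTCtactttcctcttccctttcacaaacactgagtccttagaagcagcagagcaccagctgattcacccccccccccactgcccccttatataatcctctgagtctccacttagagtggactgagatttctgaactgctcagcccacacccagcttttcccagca
Of 27025 genes with a promoter in the table, 3.99% held a match in at least 1 promoter (3.44% of all 32851 promoters). Of the 18 measured interferon genes, 14 had a promoter there, and 10 of those held a match. A match describes the letters of this window only. Usp18 was not among the promoters used here.

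No gene passed in the lists that follow, and some of their medians rested on 1 array. Cytosolic ribosomal proteins had a median of 0.20 over 48 measured genes, with 0 passing. Their mean level was 11.02, 10.44, 11.01 and 10.97 in C57BL/6 and 11.05 to 11.07 in C57BL/6J. Only C57BL/6 replicate 2 was low, and without it the median was 0.03. Oxidative phosphorylation genes went the same way, with a median of 0.15 over 66 genes, 0 passing, and 0.00 without that array. Heat shock proteins and chaperones had a median of -0.27 over 17 genes with 0 passing, and of -0.27 without replicate 2 of C57BL/6. Among them were Hspa4l at -0.74 ± 0.21 (adjusted p = 0.122) and Hsp90aa1 at -0.57 ± 0.21 (adjusted p = 0.211). The per-array level of that list was 8.02 to 8.32 in C57BL/6 and 7.86 to 8.01 in C57BL/6J.

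**Figure D2:**
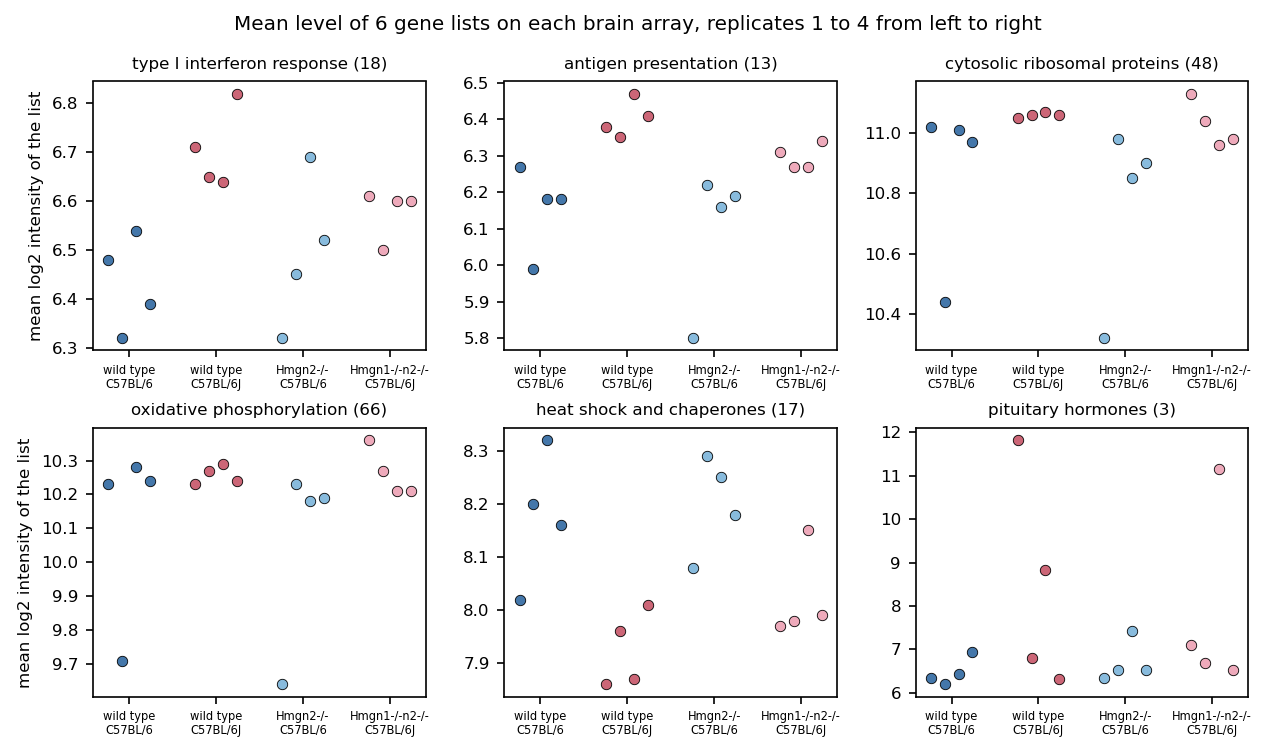
Mean log2 intensity of the measured members of 6 gene lists (number in parentheses) on each of the 16 brain arrays, with replicates 1 to 4 from left to right in each group. The interferon, antigen, ribosomal and heat shock lists do not overlap between the wild types, the low ribosomal and respiratory levels belong to C57BL/6 replicate 2 and Hmgn2-/- replicate 1, and the pituitary list is high on a few arrays.

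The clock, GABA and proteasome lists held 1 passing gene each, where 0.857% of all genes passed. Npas2, a transcription factor of the circadian clock in the forebrain, was the only one of 16 clock genes to pass (0.76 ± 0.14, limma's adjusted p = 0.0341). It read 6.23, 5.92, 5.97 and 5.74 in C57BL/6 and 6.55, 6.60, 6.97 and 6.77 in C57BL/6J. Per2, a repressor of the clock, was at 0.51 ± 0.14 (adjusted p = 0.105) and Usp2, a clock-controlled ubiquitin protease, at -0.59 ± 0.15 (adjusted p = 0.0972), neither passing. Of 15 genes of GABA receptors and interneurons, Gabrb2 was lower and 0 were higher, with a median of -0.08. Gabbr1 was at -0.49 ± 0.16 (adjusted p = 0.177). The proteasome list had 1 passing gene of 27, Psmd8 of the regulatory cap, which was lower. The median of that list was 0.05, with 16 genes above 0 and 11 below. Psmd6 of the same cap was at -0.47 ± 0.16 (adjusted p = 0.169).

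Marker lists of cell types and regions held 0 or 1 passing gene each, counts too small to set against the 0.857% of all genes. Of 17 endothelial and pericyte markers, Higd1b, a pericyte gene, was higher (0.63 ± 0.13), and of 14 meningeal and fibroblast markers, Igfbp2, which binds insulin-like growth factors, was lower (-0.80 ± 0.14). Another detected probe of Igfbp2 was at -0.18. The lists of striatal (16 measured), cerebellar (13), hippocampal (13) and cortical projection neurons (18) had 0 passing genes, with medians of 0.06, -0.23, 0.17 and 0.04. Oligodendrocyte genes had 0 of 17 passing and a median of -0.15, and astrocyte genes 0 of 20 and a median of -0.14. Of the 20 astrocyte genes 16 lay below 0. Gfap, the main filament of reactive astrocytes, was at -0.44 ± 0.14 (adjusted p = 0.168). Ependymal and cilia genes had a median of 0.35 over 6 measured members with 0 passing, and of 0.22 without C57BL/6 replicate 2. Their mean level was 5.90 to 6.30 in C57BL/6 and 6.36 to 6.48 in C57BL/6J, without overlap. Blood genes had a median of 0.42 over 6 measured members with 0 passing, 0.25 without C57BL/6 replicate 2, and their mean level of 6.87 to 7.49 in C57BL/6 overlapped with 7.40 to 7.86 in C57BL/6J.

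**Figure D3:**
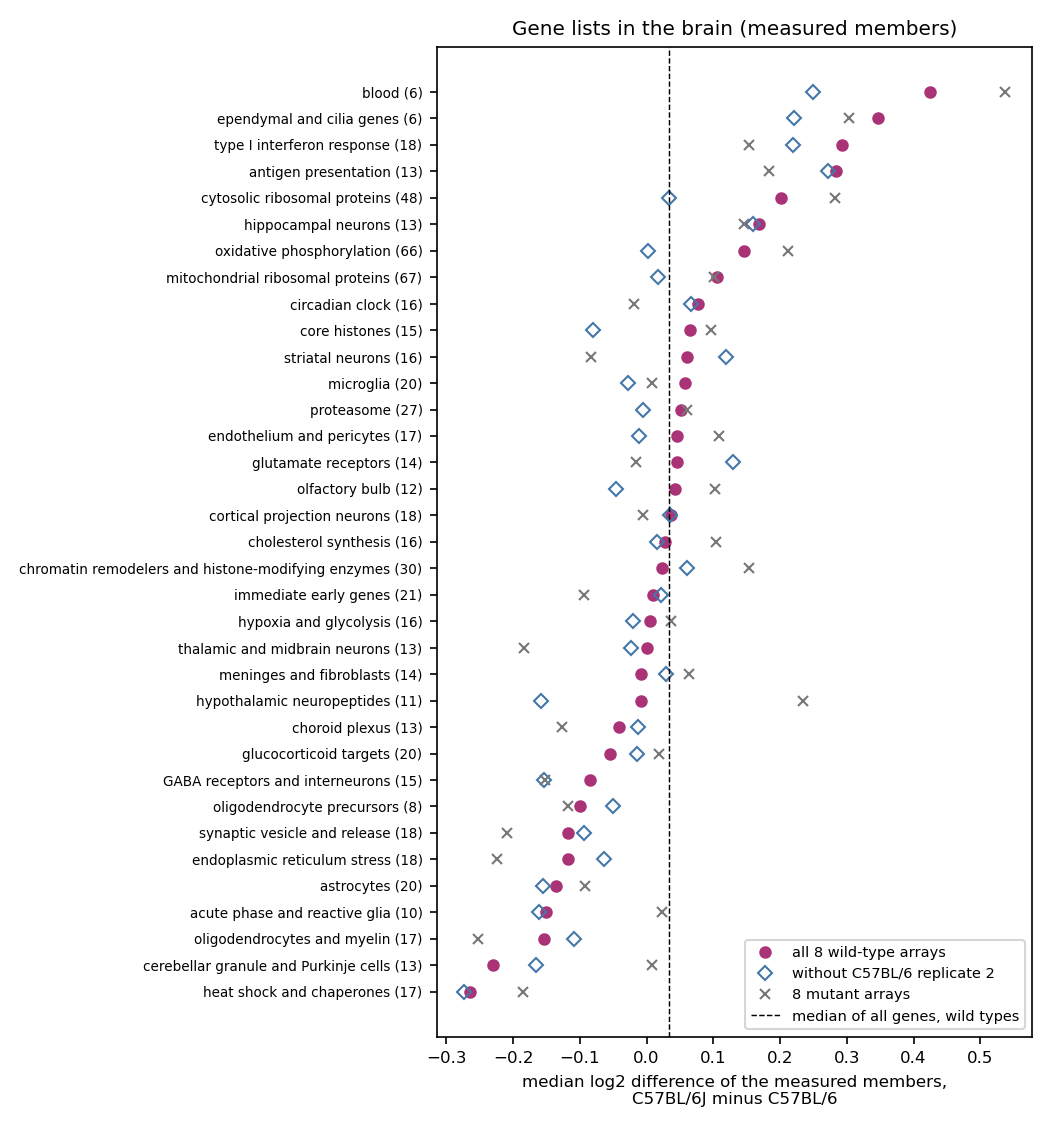
Median log2 difference of each gene list with at least 5 measured members (number in parentheses) in the wild-type brains, in the wild-type brains without C57BL/6 replicate 2 and in the mutant brains. The dashed line marks the median of 0.03 over all genes, and of 35 lists 5 lie above it and 13 below it in all 3 sets.

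Genes known to differ between C57BL/6 sublines could be read only in part. Of 12 such genes on a list, 8 had a named probe and 3 passed the filter on dim probes. Entpd4, an enzyme that splits nucleotides in the Golgi (0.20 ± 0.12), Ide, which degrades insulin (0.24 ± 0.23), and Fgfbp3, a binding protein of fibroblast growth factors (-0.18 ± 0.18), did not pass. The probe of Nnt was detected on 0 of 8 wild-type brain arrays, at mean levels of 4.28 and 4.33, as were those of Crb1, Cyfip2, Wdfy1 and Gabra2. On these brain arrays the loci therefore do not test the strain labels.

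The mutant brains gave the same pair of labels on 8 other arrays, although there the genotype differs too, since Hmgn1 was targeted in 1 group only. Between Hmgn1-/-n2-/- of C57BL/6J and Hmgn2-/- of C57BL/6, 453 of 8752 genes were higher (5.18%) and 364 lower (4.16%). That total of 817 became 1500, 720, 386 and 474 without Hmgn2-/- replicates 1 to 4 in turn, and 245, 62, 386 and 158 without Hmgn1-/-n2-/- replicates 1 to 4. Of the 75 genes, 73 had the same sign in the mutants, and 44 passed there in the same direction, 21 higher and 23 lower. That is 58.7% of the wild-type list and 5.39% of the genes that passed in the mutants. No gene passed in the opposite direction. Over all 8752 genes the 2 sets of differences had a Pearson correlation of 0.699, given as a description across genes, which are not independent. Both sets were normalized together, and in the mutants too the raw 95th percentile split by label, at 690 to 842 for Hmgn2-/- and 960 to 1140 for Hmgn1-/-n2-/-. Its part in the shared pattern was not tested.

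Several of the genes described above had differences of similar size in both sets, among them Sirpa (-1.02 and -1.03), Slc23a2 (-1.10 and -1.12), Gabrb2 (-1.09 and -1.08), B2m (0.77 and 0.74) and Ppie (0.78 and 0.73). Dynll2 read 7.96, 8.01, 7.81 and 8.19 in Hmgn2-/- and 7.01, 6.71, 6.65 and 7.24 in Hmgn1-/-n2-/-. These levels overlapped with those of the wild types of the same label and not with those of the other label. Npm3-ps1 differed by 1.10 ± 0.15 in the mutants (limma's adjusted p = 0.00948) and by 0.98 ± 0.13 in the wild types.

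Of the interferon genes, Usp18 was at 0.08 ± 0.14 (adjusted p = 0.714) and Ifit3 at 0.17 ± 0.15 (adjusted p = 0.473), neither passing. The tests of the difference between the 2 sets gave adjusted p = 0.988 for both in limma, which does not show that the sets differ.

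Ccng2 passed in both sets. In the mutants it read 7.82, 7.35, 7.59 and 7.49 in Hmgn2-/- and 6.92, 6.13, 6.66 and 6.56 in Hmgn1-/-n2-/-, a difference of -0.996 ± 0.17 (limma's adjusted p = 0.0115). The Hmgn1-/-n2-/- brains lay above all wild types of their own label and below all C57BL/6 brains. The difference between the 2 differences, tested over the 16 brain arrays in a fit added after the values were seen, was -1.80 ± 0.27 (adjusted p = 0.0319), and no other gene passed it. At an unadjusted p under 0.05 there were 422 genes. Ccng2 passed that test in 3 of 8 fits that left out 1 replicate number of a label in both genotypes. It did not pass without C57BL/6 replicates 2, 3 and 4 or C57BL/6J replicates 1 and 3, where its value was -1.59, -1.88, -1.73, -1.75 and -1.68. Without background correction its value was -0.63 (adjusted p = 0.517 in limma).

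Psmd8 and Zfp940, the latter named after its values were seen, were the 2 genes whose sign turned. Psmd8 read 9.82, 9.38, 9.60 and 10.05 in C57BL/6 and 8.94, 9.02, 9.08 and 8.84 in C57BL/6J wild types. In Hmgn2-/- and Hmgn1-/-n2-/- brains it read 9.42 to 9.85 and 9.57 to 9.89. Only the C57BL/6J wild types stood apart from the other 3 groups, and Zfp940 showed the same picture, at 4.82 to 5.40 in those wild types and 5.65 to 6.09 in all others. The tests of the difference between wild types and mutants gave adjusted p = 0.393 for each in limma.

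**Figure D4:**
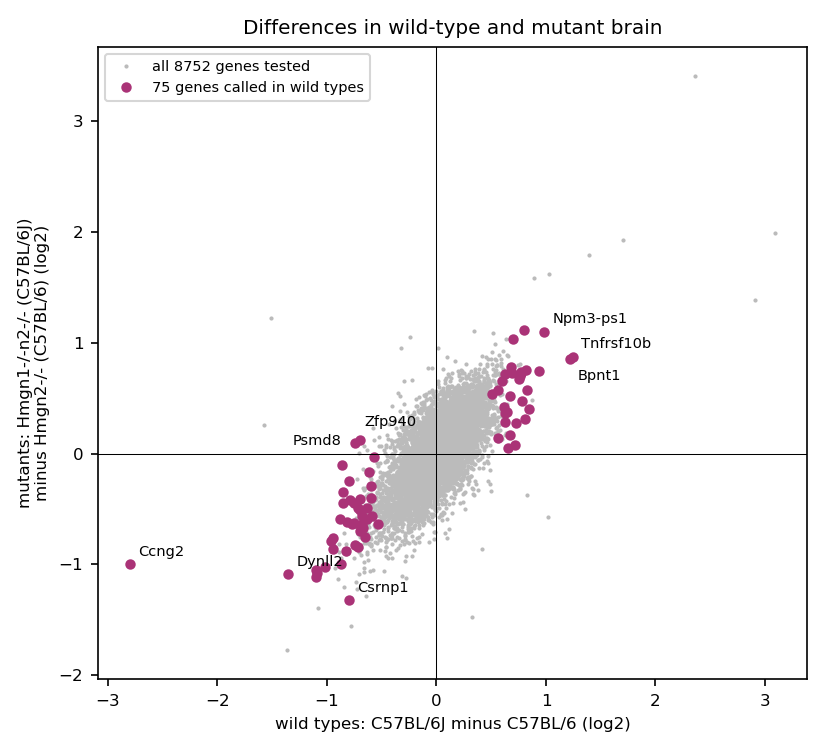
Log2 difference of each of the 8752 genes between labels in the wild-type brains (x axis) and in the mutant brains (y axis), with the 75 genes that passed in wild types in colour. Of the coloured points 73 lie in the quadrants of equal sign, Psmd8 and Zfp940 do not, and Ccng2 lies far to the left.

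The same mice gave liver, spleen and thymus, which shows where a difference recurs outside the brain. Of 6208 genes measured in every organ, 135 passed between the labels in liver (2.17%), 220 in spleen (3.54%) and 6 in thymus (0.0966%). In the same fit of 32 arrays the brain had 200, a count not comparable with the 75 of its 8-array fit. Of the 46 brain genes measured in every organ by the same probe, the liver called 5 in the same direction, and spleen and thymus 2 each. Beside Ccng2, Psmd8 and Csrnp1, those of the liver were Ociad1 (-0.48) and Coq2 (-0.54), and Csrnp1, Ociad1, Coq2 and Nfkbib are named in the account of the organs after their values were seen. Equal sign was seen for 32, 27 and 14 of the 46. The correlation of differences with the brain over all 6208 genes was 0.305 for liver, -0.132 for spleen and -0.0486 for thymus, as a description. In the spleen, the library labelled C57BL/6J wild type replicate 4 had an Hmgn2 level against its label, and without it 405 genes passed there, 3 of them brain genes in the same direction.

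Ccng2 and Psmd8 passed in every organ in the same direction. Ccng2 was at -2.02 in liver, -1.73 in spleen (-2.39 without the doubted library) and -2.55 in thymus. Psmd8 was at -0.89, -0.68 (-0.90 without that library) and -0.87 in the same order. Nfkbib, an inhibitor of NF-kappa-B, was at 0.62 in the brain and at 0.47, 0.42 and 0.48 in liver, spleen and thymus. The liver and thymus values did not pass (limma's adjusted p = 0.0615 and 0.326). The spleen value passed only without the doubted library (0.62, adjusted p = 0.00424 in limma). Csrnp1, a nuclear protein, was lower in the brain (-0.80) and the liver (-1.29), and was at -0.60 in both spleen and thymus without passing.

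Most of the other large brain differences were larger in the brain than in the mean of the other organs. This contrast was passed by 99 of 6208 genes (1.59%), and by 38 without the brain array of C57BL/6 replicate 2, 51 without that of C57BL/6 replicate 4, 44 without C57BL/6J replicate 2 and 33 without C57BL/6J replicate 3. Of the 46 brain genes 30 passed it, each with the brain farther in its own direction, which the choice by the brain difference favours. The smallest p belonged to Bpnt1 (1.32 ± 0.14, limma's adjusted p = 8.74e-07), Npm3-ps1 (1.65 ± 0.21), Srd5a3 (-0.76 ± 0.12), Tnfrsf10b (1.42 ± 0.22) and Atox1 (1.18 ± 0.19). Bpnt1 was at -0.19, -0.08 and -0.04 in liver, spleen and thymus on the probe that gave 1.22 in the brain. Npm3-ps1 went the opposite way in the spleen, at -1.30, where it passed. Atox1, a copper chaperone, was at 0.59 in the brain (adjusted p = 0.062) and at -0.70, -0.76 and -0.33 in liver, spleen and thymus, so its contrast came from both sides.

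**Figure D5:**
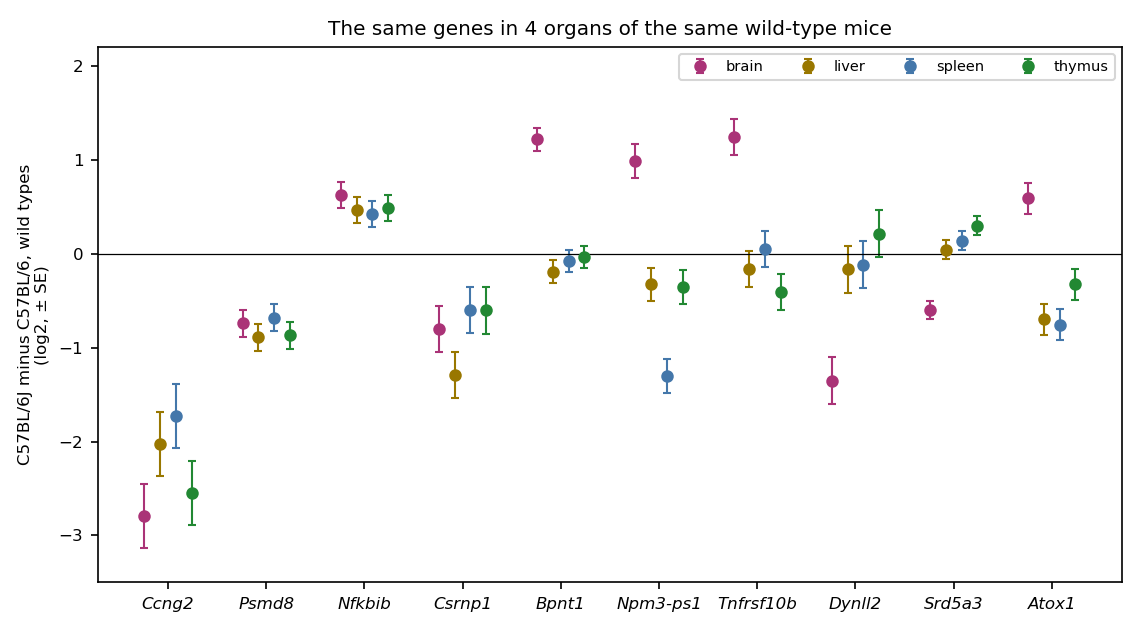
Log2 difference between wild types, C57BL/6J minus C57BL/6, in 4 organs of the same mice, with the standard error from limma's fit of 32 arrays (n = 4 per group). Ccng2, Psmd8, Nfkbib and Csrnp1 lie on the same side of 0 in all organs, whereas Bpnt1, Tnfrsf10b and Dynll2 lie apart in the brain.

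Some of the 75 genes were neighbours on their chromosome. Gene order was taken from RefSeq, and the stretches described were picked after the values were seen because they held passing genes, so their counts are not tested. Over all genes 0.857% passed. Chromosome 5 held 12 of the 75 genes (16.0%) and 6.64% of the genes tested. Of those, 9 lay within 52 neighbouring tested genes from Ociad1 to Coq2, namely Ociad1, Srd5a3, Parm1, Rchy1, Sowahb, Ccng2, Bmp2k, Rasgef1b and Coq2. Among these, Ccng2, Bmp2k and Rasgef1b were carried past the detection filter by the group in which they are high. Sowahb and Ccng2 are next to each other among tested genes, and 8 of the 9 were lower with the C57BL/6J label, with Bmp2k higher. In the mutants, 2 of these 9 passed in the same direction. Coq2, an enzyme of coenzyme Q synthesis, read 9.53 to 9.87 in C57BL/6 and 8.83 to 9.08 in C57BL/6J wild types.

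On chromosome 7, Nfkbib, Psmd8 and Zfp940 lay within 16 neighbouring tested genes. None of the 3 passed in the mutants. On chromosome 2, Sirpa, Stk35, Rassf2, Slc23a2 and Plcb4 lay within 40 neighbouring tested genes, and all 5 passed in the mutants in the same direction. Rassf2, a member of a family of tumour suppressors, was higher and its neighbour Slc23a2 lower.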

How the data were processed

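RNA from 4 organs of each of 16 male mice was measured on Illumina bead arrays, 1 array per organ. The authors deposited a non-normalized table of probe intensities, exported from GenomeStudio 2011.1 per the submitters' processing notes. Each intensity there has a detection p-value, also deposited by the authors, which states how far a probe lies above the negative controls. A second deposited table of background-subtracted, normalized intensities served as an alternative.

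Intensities of the 16 brain arrays were background-corrected, quantile-normalized and log2-transformed with neqc (offset 16) in limma 3.58.1 under R 4.3.3. Probes with a detection p under 0.01 on at least 4 of the 8 wild-type arrays were kept, and each gene took its probe of highest mean over them. Of 25697 probes, 23978 had 1 gene, 1719 had none and 0 had several, and 23971 symbols were updated through RefSeq (GRCm38.p6). Differences were fitted with lmFit and eBayes and adjusted by the Benjamini-Hochberg method over all genes tested, and every adjusted p and standard error given is limma's. A gene passed at an adjusted p under 0.05. The wild types were fitted on their 8 arrays. The organs were fitted on 32 wild-type arrays with the mouse as a random block. The code was tested on simulated data.

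Genes were named by a rule: the 12 largest differences that passed in each direction, the HMGN genes, subline genes, the leading members of each of 40 gene lists, genes that passed in every organ, and the 5 with the smallest p between brain and other organs. Others are said to be chosen after their values were seen. The members and lists were chosen with earlier results of these data known. Labels do not say that littermates or cages were kept apart, so p-values measure the spread between these mice. The number of arrays limits the precision. Same-numbered arrays of the wild types correlated at 0.00105 to 0.187 with one exception at -0.0928, so the numbers were not taken as pairs.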

Additional observations from a re-analysis of the deposited data

Results flagged for a closer look

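In groups of 4 arrays, 3 of 68 group values tested held an array far from the others, where chance gives about 1 in 20. Eef1akmt1 had one C57BL/6J brain at 7.63 with the others at 7.82 to 7.85. Kif22 had one C57BL/6J brain at 6.55 with the others at 6.75 to 6.77. Pigk had one C57BL/6 brain at 7.12 with the others at 6.55 to 6.63.

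In wild types, the difference between labels in the brain departed from the mean difference of liver, spleen and thymus for the 16 genes listed here. The test was limma's contrast on 32 arrays. Other genes named above passed it too, among them Slc11a2 (0.76), Slc25a12 (-0.69), Rchy1 (-0.95) and Coq2 (-0.66). Over all genes measured in every organ, 99 of 6208 passed this contrast (1.59%). Many genes were named for their large brain difference or for a small p in this contrast. That choice favours such a departure, so nothing is read from the count of 16. On the log2 scale the brain exceeded the other organs by 1.42 for Tnfrsf10b, 1.32 for Bpnt1, 1.65 for Npm3-ps1, 1.06 for Eef1akmt1, 0.85 for Prr14l, 0.77 for Ppie, 0.63 for B2m and 1.18 for Atox1. It lay below them, at -1.33 for Dynll2, -1.12 for Slc23a2, -1.14 for Hsd3b2, -0.96 for Ube2z, -1.04 for Eif4b, -0.82 for Fam76a, -0.90 for Pigk and -0.76 for Srd5a3.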

How the results depend on the processing

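All 75 genes kept their sign in every setting tried, Ccng2 alone passed in every setting that tested it (22 of 23), and 11 passed in at least 18 settings. The setting that did not test Ccng2 asks for detection on every wild-type array, which Ccng2 did not meet. In fits that only left arrays out, the sign could not turn, since the wild-type groups overlapped in none of the 75 genes. The count of 75 became 47 without background correction, 417 under median scaling, 21 in the authors' normalized table, 27 without a filter on dim probes, 146 with all groups in the fit and 500 with array weights. It was 187 without the 2 brain arrays that correlate least, 4 without the 3 dimmest C57BL/6 arrays and 8 to 187 with 1 array left out. Median scaling shifted the median of all genes to 0.23 and put 92.3% of calls on the higher side, against 42.7%; this share was 52.4% in the authors' table and 54.8% with all groups. The count of 99 between brain and other organs became 448 under median scaling, 216 without the filter, 155 with all groups, 412 with array weights, 38 without those 2 arrays and 33 to 134 with 1 left out. The count of 817 in the mutants became 3122, 1993 and 1500 under median scaling, array weights and without those 2 arrays, and 62 to 1500 with 1 left out. The single call between wild types and mutants became 0 without background correction, with detection on every array and without the filter. That call count was 2 under median scaling, loess and the authors' table, and 7 with array weights. Leaving out 1 replicate number of a label in both genotypes gave 0 to 3. With the replicate block, the counts were 80, 29, 71 and 0 in that order, and 32.5% of the 80 were higher; replicate numbers do not pair these mice. Hmgn1 changed sign with array weights (-0.0248), without those 2 arrays or C57BL/6 replicate 2 (-0.0241, and up to 0.11 with 1 array left out), and without the 3 dimmest (-0.0925). Hmgn2 did so under median scaling (0.33) and loess (0.0837) and ranged from -0.12 to 0.00178 with 1 array left out, positive without replicate 4 of either label; Hmgn3 was at -0.0398 without the 3 dimmest. Causes were not tested. The slide as a block was not run, since the sources used here give no slide. Settings without the 2 or 3 named arrays, and the fit of wild types against mutants, were added after seeing the data.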
